A study of Mus musculus with 18 samples.

Results

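The genes described here are 9 that were grouped as markers of classical monocytes lost during maturation: Ly6c2, Ly6c1, Ly6a, Ly6e, Ly6i, Plac8, Chil3, Vcan and F13a1. The data go against that name for Ly6a, whose mean was lowest in the most monocyte-like of the 3 sorted populations, and for Ly6c1 and Ly6i, whose means were highest in the intermediate one. They were taken by gene symbol from a table of 21254 genes, and all 9 were among the 15811 genes with enough reads to be tested. The table held 18 RNA-seq libraries from mouse lung, 3 in each of 6 groups, made from cells sorted 24 h after a 15 min nebulization of Pseudomonas aeruginosa LPS (12.5 mg in 5 ml). Monocyte-derived macrophages (moMs) were sorted as CD45+CD11b+ cells with surface Ly6C but no MHC-II, transitional interstitial macrophages (tnsIMs) carried both proteins, and mature interstitial macrophages (matIMs) carried MHC-II but no Ly6C. Each population came from WT mice, which carried Cx3cr1-Cre without a floxed Ezr gene, and from Ezr-KOm mice, in which Ezr fl/fl was combined with the same Cre, all young adults of both sexes on a C57BL/6 background. The Cre is driven by Cx3cr1, a gene of monocytes and macrophages, and deletion is limited to cells that express or expressed it. All 6 groups had received LPS, so no level here describes a resting lung.

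Library totals ranged from 16512783 to 48460995 counts. Ezr, the targeted gene, was lower in every Ezr-KOm library than in every WT library of the same population, with log2 fold changes of -1.20 in moMs (adjusted p = 0.0549), -1.62 in tnsIMs (adjusted p = 0.00365) and -2.29 in matIMs (adjusted p = 7.73e-05; edgeR quasi-likelihood test). Levels are given as library-size normalised read counts (CPM), and a gene was called when its p from this test, adjusted over all 15811 genes, was under 0.05. The 7 MHC class II genes listed rose from moMs to tnsIMs in both genotypes, the direction that the gate sets. Ccr2, the chemokine receptor of classical monocytes, fell from 1574 ± 155 CPM in WT moMs (SD, n = 3) by 0.77 in tnsIMs and by 1.16 in matIMs on the log2 scale (adjusted p = 0.00462 and 9.76e-05). Cx3cr1 and Itgam (CD11b) also fell from WT moMs to matIMs (log2 -1.20 and -0.79, edgeR adjusted p = 0.00401 and 0.00104). Between genotypes in moMs the log2 fold changes were -0.04 for Ccr2, -0.49 for Cx3cr1 and 0.27 for Itgam, none called. The moM genotypes did not overlap for Cx3cr1 and Itgam, as for 8.52% of all genes. Transcripts of CD45- cell types, which the CD45+ gate leaves out, were also read: the summed level of 10 endothelial genes was 492 to 796 CPM in WT tnsIMs against 151 to 194 CPM in moMs and 94.2 to 131 CPM in matIMs, and that of 8 epithelial genes was 2476 to 4098 CPM in tnsIMs against 114 to 150 CPM and 533 to 571 CPM. No endothelial or epithelial marker was at 0 in any library, but some were near it, with 1 count of Nkx2-1 and 9 of Emcn at the lowest. The summed level of 8 dendritic cell genes was 5502 to 7597 CPM in WT matIMs against 83.3 to 124 CPM in WT moMs. Macrophage genes were mixed in the same comparison. For 12 interstitial macrophage genes the sum was 2526 to 3245 CPM in WT matIMs against 3294 to 4143 CPM in WT moMs. Of these 12 genes, 6 rose and 3 fell from WT moMs to matIMs, with a median log2 fold change of 1.03. All 8 alveolar macrophage genes listed rose.

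Classical monocytes are blood cells that leave the circulation for inflamed tissue, where they lose their monocyte programme and become macrophages. In the mouse they are recognised by Ly6C, a small GPI-anchored protein of the Ly6 family encoded by a pair of neighbouring genes, Ly6c2 and Ly6c1. Ly6a (Sca-1), Ly6e and Ly6i belong to the same family, and Ly6c1 and Ly6a are also well known from endothelial cells. Plac8 is a small cysteine-rich protein of monocytes and other leukocytes, and Chil3 (Ym1) is a secreted chitinase-like protein without enzyme activity. Vcan encodes versican, a large proteoglycan of the extracellular matrix, and F13a1 the catalytic A subunit of coagulation factor XIII, a transglutaminase that cross-links fibrin.

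The 5 Ly6 members lie on chromosome 15 of GRCm39, Ly6c2 at chr15:74980007-74983819 and Ly6c1 at chr15:74915867-74920679, both on the minus strand. Their coding sequences are nearly the same. Over 393 coding bases, 384 were identical between Ly6c2 and Ly6c1 (97.7%), whereas Ly6c2 shared 81.6% of aligned bases with Ly6a and with Ly6i and 49.7% with Ly6e. The first 120 coding bases of the pair, from the GENCODE transcripts of GRCm39, are printed here because the pair is nearly indistinguishable in sequence but not in expression, and capitals mark the 6 bases that differ.
Ly6c2: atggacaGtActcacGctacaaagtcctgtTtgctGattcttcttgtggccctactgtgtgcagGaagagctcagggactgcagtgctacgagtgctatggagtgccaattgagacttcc
Ly6c1: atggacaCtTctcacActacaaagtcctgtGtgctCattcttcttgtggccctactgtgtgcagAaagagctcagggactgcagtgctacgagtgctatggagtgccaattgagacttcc

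Upstream of the start site the pair differed more. The 300-base windows from 250 bases before to 50 bases after the first listed start (RefSeq, GRCm38.p6, minus strand) lie at chr15:75111922-75112221 for Ly6c2 and at chr15:75048788-75049087 for Ly6c1, and a global alignment of the windows had 208 identical bases in 334 columns (62.3%). Gap columns count as differences in this percentage, and the 2 windows do not begin at matching bases. It therefore reflects in part where the windows lie. Both windows are shown because these genes followed different courses between the populations. Capitals mark GAGGAAG, a core recognised by the myeloid factor PU.1, searched on both strands.
Ly6c2: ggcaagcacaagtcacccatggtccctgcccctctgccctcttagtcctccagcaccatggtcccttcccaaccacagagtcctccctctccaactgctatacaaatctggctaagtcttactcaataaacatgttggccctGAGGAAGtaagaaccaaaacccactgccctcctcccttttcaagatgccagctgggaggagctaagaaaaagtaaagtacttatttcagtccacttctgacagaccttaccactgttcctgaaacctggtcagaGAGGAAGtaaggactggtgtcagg
Ly6c1: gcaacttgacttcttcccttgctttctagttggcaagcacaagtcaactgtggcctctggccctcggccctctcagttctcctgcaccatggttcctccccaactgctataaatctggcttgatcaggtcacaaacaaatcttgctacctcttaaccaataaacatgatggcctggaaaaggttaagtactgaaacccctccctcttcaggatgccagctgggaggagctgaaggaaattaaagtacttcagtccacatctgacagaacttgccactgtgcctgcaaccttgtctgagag
The Ly6c2 window held 2 matches, whereas the Ly6c1 window held none in full and the window of a second Ly6c1 start held 1. That match begins in the last bases of the first Ly6c1 window, whose end cuts it. It lies in sequence like that around the second Ly6c2 match, so the difference in matches depends in part on where the windows end. Of 32851 promoter windows of this length, 13.6% held at least 1 match, so the match is a description and not a binding site. The interferon-stimulated response element (ISRE), whose letters were in 3.44% of all windows, was in none of the windows listed for the 6 members with an entry (Ly6c2, Ly6c1, Plac8, Chil3, Vcan and F13a1).

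Paralogous genes can share reads, and reads that map to several places are not counted by the counting mode the authors used. Of all 150-base windows of the main annotated transcript, 5.67% in Ly6c2 and 4.15% in Ly6c1 were also found in the other gene, 3.43% of those in Ly6a occurred in the gene model Gm28068, and none was shared for the other 6 members. With 50-base windows the shared part was 32.4% in Ly6c2, 37.5% in Ly6c1, 13.3% in Ly6a, 5.78% in Ly6i and 29.4% in Chil3, the last with Chil4 and Gm6522. Read pairs span more than 1 such window, so these figures describe the sequences and not the reads lost, and values of Ly6c2, Ly6c1, Ly6a, Ly6i and Chil3 carry this uncertainty.

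The group was uneven in WT cells. From moMs to matIMs, 7 of the 9 genes fell (Ly6c2, Ly6c1, Ly6e, Plac8, Chil3, Vcan and F13a1), Ly6a rose, and Ly6i was not called. Of all genes tested, 24.8% were called in this comparison, 11.4% as lower and 13.4% as higher, and 41.5% had WT groups that did not overlap. The median log2 fold change of the 9 genes was -1.69, against 0.01 over all genes. From moMs to tnsIMs, 5 fell (Ly6c2, Plac8, Chil3, Vcan and F13a1) and 2 rose (Ly6c1 and Ly6a), where 21.6% of all genes were called, 8.61% lower and 13% higher, and 36% did not overlap. From tnsIMs to matIMs, 5 fell (Ly6c2, Ly6c1, Ly6i, Chil3 and Vcan) and all 9 log2 fold changes were negative, where 18.5% of all genes were called, 10.2% lower and 8.32% higher, and 31.5% did not overlap. The comparisons share libraries and are not independent of each other, and in sorted bulk samples fewer cells of a type and less RNA per cell cannot be told apart. Since surface Ly6C was the sort gate, the low Ly6c2 and Ly6c1 levels in matIMs describe the gate as much as the cells. The other 7 genes do not encode the gated protein. They were grouped as markers of the same cells, with earlier results of these data known, and so are not an independent comparison.

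**Figure D1:**
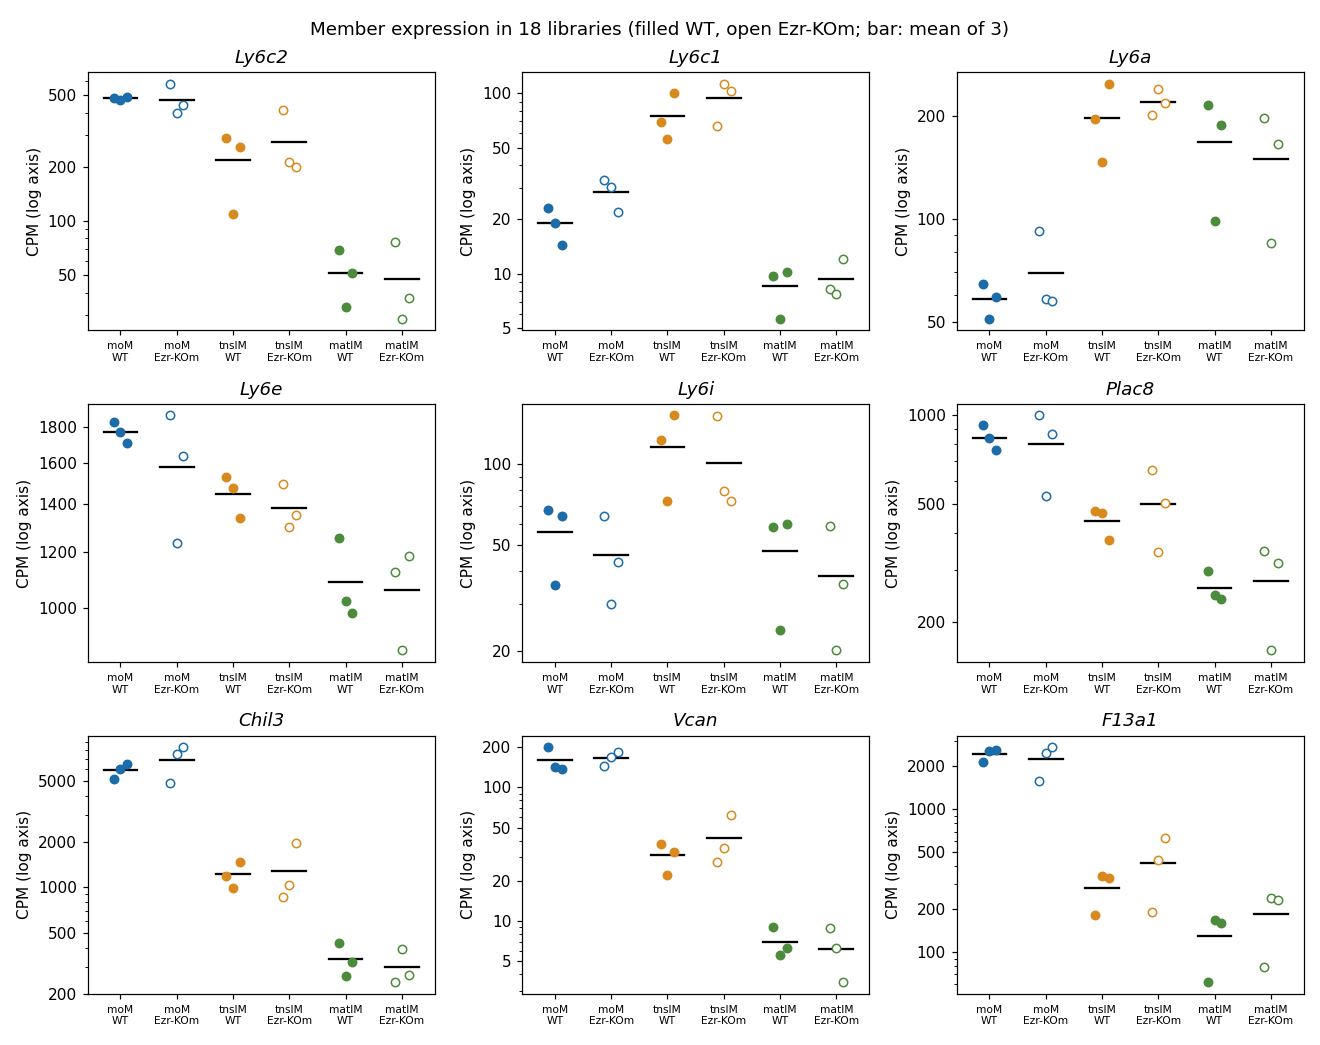
Expression of the 9 genes in each of 18 libraries, in CPM on a log axis, with 3 libraries per group (filled circles WT, open circles Ezr-KOm) and bars at the group mean. Chil3, Vcan and F13a1 step down from moMs to tnsIMs to matIMs, Ly6c1 and Ly6i are highest in tnsIMs, and Ly6a is lowest in moMs.

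Ly6c2 was the main Ly6C gene of moMs. Its levels in the 3 WT moM libraries were 487, 470 and 488 CPM, in tnsIMs 288, 110 and 258 CPM, and in matIMs 69.1, 33.1 and 51.3 CPM. The 3 groups did not overlap, and the moM libraries lay much closer together than those of the later stages. Ly6c2 fell by 1.14 on the log2 scale from moMs to tnsIMs (SE 0.38, adjusted p = 0.0374) and by 2.10 from tnsIMs to matIMs (SE 0.39, adjusted p = 0.000659). The first of these calls was weak: it was lost without any 1 of the 3 moM libraries or without tnsIM replicate 2 or 3, with adjusted p values up to 0.195 and a log2 fold change of -0.79 without tnsIM replicate 2. The lower level in matIMs than in moMs, a log2 fold change of -3.23 (SE 0.41, adjusted p = 8.49e-06), was called in every alternative run.

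Ly6c1 did not follow its neighbour. Its WT levels were 23.3, 19.2 and 14.5 CPM in moMs, 69.0, 55.8 and 101 CPM in tnsIMs, and 9.67, 5.64 and 10.2 CPM in matIMs. Every tnsIM library was above every library of the other 2 populations. The gene rose 3.97-fold from moMs to tnsIMs (log2 1.99, SE 0.28, adjusted p = 6.28e-05) and was 8.82-fold lower in matIMs than in tnsIMs (log2 -3.14, SE 0.30, adjusted p = 5.95e-07). As a share of the counts of both Ly6C genes, Ly6c1 made up 3.79% ± 0.84 in moMs of WT mice, 27.0% ± 7.24 in their tnsIMs and 14.5% ± 2.19 in their matIMs (mean ± SD of 3 libraries). These shares did not overlap between the 3 populations (two-sided exact permutation test, p = 0.1 for each pair, the smallest that 3 against 3 allows). In Ezr-KOm cells the Ly6c1 share went from 5.71% ± 1.17 (moMs) through 27.5% ± 11.9 (tnsIMs) to 18.4% ± 7.72 (matIMs), and the later 2 populations overlapped (exact permutation p = 0.3). Between genotypes the moM shares did not overlap, at 2.89% to 4.57% in WT and 4.76% to 7.01% in Ezr-KOm (exact permutation p = 0.1, the smallest possible), whereas p was 0.8 in tnsIMs and 0.5 in matIMs by the same exact test.

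Ly6c1 moved together with endothelial transcripts. All 10 endothelial genes listed, among them Cdh5 (VE-cadherin), Cldn5 and Plvap, rose from WT moMs to tnsIMs, with a median log2 fold change of 2.07. All 10 fell from tnsIMs to matIMs, with a median of -3.49. Among all genes, 13% were called higher in the first of these steps and 10.2% lower in the second. This course was not particular to endothelial genes. In the first step 7 of 8 epithelial and 4 of 6 fibroblast genes listed rose, and in the second 6 and 4 fell. Cdh5 was also the gene whose log2 CPM was most like that of Ly6c1 over the 18 libraries (r = 0.987), followed by Lyve1 (r = 0.982) and Pdgfrb (r = 0.980). Lyve1 and Pdgfrb are not among the endothelial genes listed, and Lyve1 is among the interstitial macrophage genes listed. The Ly6c1 level was between 5.96% and 19.1% of the summed endothelial level in every library of the study, while the Ly6c1 level itself ranged from 5.64 to 113 CPM. The percentage was not constant between groups. In WT mice it was 9.64% to 14.47% in moMs, 7.84% to 14.0% in tnsIMs and 5.96% to 10.3% in matIMs. In Ezr-KOm mice it was 14.51% to 17.6%, 16.7% to 19.1% and 6.90% to 10.1%, and these differences were not tested. Gpihbp1, another Ly6 family gene and a protein of capillary endothelium, rose and fell as well, from 5.95 ± 1.06 CPM in WT moMs to 28.1 ± 3.83 CPM at the transitional stage and 2.28 ± 0.41 CPM in mature cells. Within groups, Ly6c1 and the mean of the endothelial genes deviated together less closely (r = 0.731 over 18 libraries), and the value depended on the number left out (0.379 without number 3, 0.981 without number 1). The part of endothelial, epithelial or fibroblast RNA in the Ly6c1 result was not tested.

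**Figure D2:**
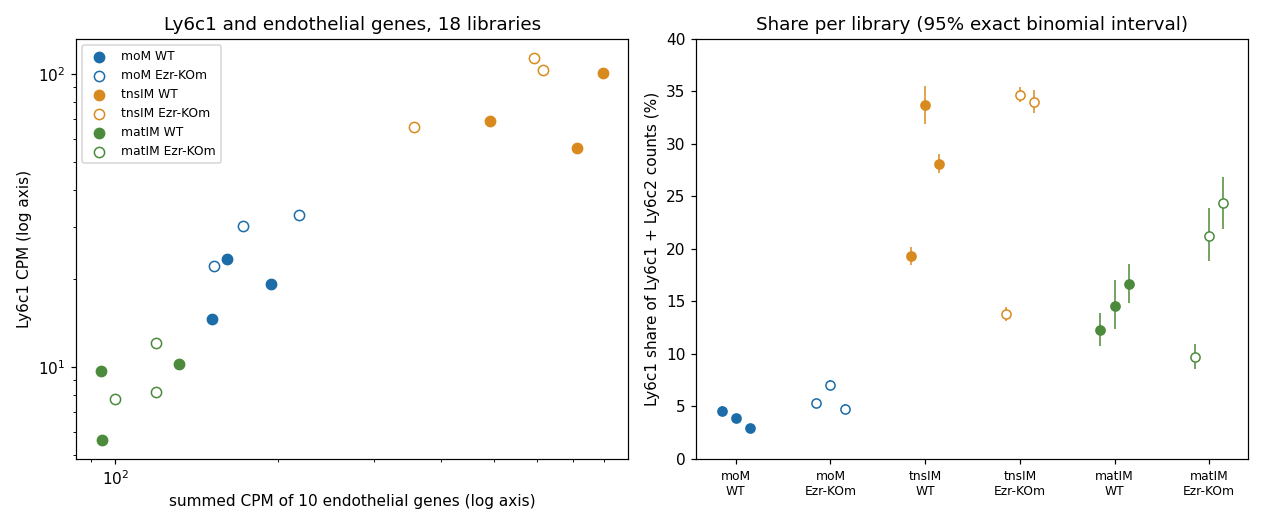
Left, Ly6c1 against the summed level of 10 endothelial genes in each of 18 libraries, both in CPM on log axes; right, the Ly6c1 share of the counts of both Ly6C genes per library in percent, with exact binomial intervals that cover counting error only. The 6 tnsIM libraries are highest on both axes at the left, and all moM libraries lie at or under 7.01% at the right.

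Ly6a, also of the Ly6 cluster, was higher after the moM stage. It had 64.7, 51.2 and 59.1 CPM in WT moMs, 196, 147 and 248 CPM in tnsIMs, and 216, 98.4 and 187 CPM in matIMs. All moM libraries were below all others, and tnsIMs and matIMs overlapped. Ly6a rose 3.38-fold from moMs to tnsIMs (log2 1.76, SE 0.30, adjusted p = 0.000393) and stayed 2.87-fold above moMs in matIMs (log2 1.52, SE 0.30, adjusted p = 0.000893). Its nearest patterns over the 18 libraries were those of Tns1, Slco3a1 and Cpm (r = 0.919, 0.910 and 0.904).

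Ly6i had 67.7, 35.4 and 64.3 CPM in WT moMs, 124, 72.7 and 152 CPM in tnsIMs, and 58.2, 24.0 and 59.8 CPM in matIMs. The tnsIM libraries were above all others, while moMs and matIMs overlapped. The moM to tnsIM difference was not called (log2 1.06, SE 0.42, adjusted p = 0.0803), but it passed with the replicate number as a block (adjusted p = 0.00124). The tnsIM to matIM fall was called (log2 -1.30, SE 0.42, adjusted p = 0.0379) and was lost without tnsIM replicate 1 or 3 or matIM replicate 2. From moMs to matIMs Ly6i was not called (log2 -0.24, 95% interval -1.11 to 0.64), but the matIM level was below that of the same-numbered moM library in 3 of 3 WT and 3 of 3 Ezr-KOm pairs, and with the replicate block the WT interval was -0.73 to 0.18. The genes most like Ly6i over the 18 libraries were AU021092 (r = 0.928) and, both known from alveolar epithelium, Rtkn2 (r = 0.917) and Cldn18 (r = 0.911). AU021092 and Rtkn2 were near the floor, with means of 0.43 and 0.58 CPM in WT moMs, 3.13 and 2.07 CPM in tnsIMs, and 0.47 and 0.26 CPM in matIMs. The Rtkn2 rise into WT tnsIMs was not called (edgeR adjusted p = 0.0770). Of the 8 epithelial genes listed, 7 rose from moMs to tnsIMs and 6 fell from tnsIMs to matIMs, and their part in the Ly6i and Ly6a values was not tested.

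Ly6e and Plac8 fell gradually. Ly6e, a broadly expressed family member, had 1830, 1770 and 1709 CPM in WT moMs, 1528, 1477 and 1340 CPM in tnsIMs, and 1253, 1021 and 985 CPM in matIMs. The groups did not overlap, although neither single step was called (log2 -0.29 and -0.42, adjusted p = 0.206 and 0.0778). With the replicate block the second step passed (adjusted p = 0.0205), and over both steps Ly6e fell 1.63-fold (log2 -0.70, SE 0.16, adjusted p = 0.00254).

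Plac8 had 923, 833 and 761 CPM in WT moMs, 473, 467 and 378 CPM in tnsIMs, and 297, 246 and 239 CPM in matIMs. Again no groups overlapped. Plac8 fell by 0.93 on the log2 scale from moMs to tnsIMs (SE 0.27, adjusted p = 0.0182), a call lost without moM replicate 1 or 2 or tnsIM replicate 2 or 3. The second step had a log2 fold change of -0.75 (adjusted p = 0.0592), which passed with the replicate block (adjusted p = 0.00856). Over both steps Plac8 fell 3.22-fold (log2 -1.69, SE 0.27, adjusted p = 0.000147).

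Chil3, Vcan and F13a1 showed the deepest loss. Chil3 had 5178, 6040 and 6496 CPM in WT moMs, 1183, 998 and 1469 CPM in tnsIMs, and 432, 261 and 321 CPM in matIMs. It fell 4.85-fold and then 3.60-fold (log2 -2.28 and -1.85, SE 0.30 and 0.29, adjusted p = 2.88e-05 and 0.000141), or 17.5-fold in all. Per kilobase of the main annotated transcript Chil3 was the most abundant of the 9 genes in WT moMs, at 3837 ± 435 CPM per kb. Plac8 had 1128 ± 109 and Ly6e 757 ± 25.9 CPM per kb. The transcript lengths came from a later annotation than the counts and need not match the counted gene models. The order below Chil3 is therefore uncertain.

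Vcan had 200, 141 and 137 CPM in WT moMs, 37.5, 22.3 and 33.1 CPM in tnsIMs, and 9.09, 5.55 and 6.30 CPM in matIMs. The fall was of similar size at both steps, 5.13-fold and 4.45-fold (log2 -2.36 and -2.15, SE 0.32 and 0.33, adjusted p = 3.99e-05 and 9.06e-05). From moMs to matIMs it came to 22.8-fold, the largest change among the 9 genes in WT cells.

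F13a1 had 2163, 2559 and 2607 CPM in WT moMs, 181, 341 and 328 CPM in tnsIMs, and 61.6, 167 and 160 CPM in matIMs. Here most of the loss lay in the first step, 8.62-fold (log2 -3.11, SE 0.47, adjusted p = 0.000117). The second step was 2.19-fold (log2 -1.13, SE 0.44, adjusted p = 0.0864), not called unless tnsIM replicate 1 was left out (adjusted p = 0.0480) or the replicate block was fitted (adjusted p = 0.000642). No WT library of one population overlapped with another.

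For 6 of the 9 genes the tnsIMs lay between the other populations. On the log2 CPM scale, with WT moMs at 0% and WT matIMs at 100%, the WT tnsIM libraries were at 38.1% ± 23.1 for Ly6c2, 40.8% ± 13.8 for Ly6e, 52.6% ± 8.72 for Vcan, 55.2% ± 6.73 for Chil3, 55.4% ± 10.8 for Plac8 and 72.4% ± 11.7 for F13a1 (SD, n = 3). In Ezr-KOm cells the same measure was 24.8% ± 16.9, 30.5% ± 18.3, 42.8% ± 12.5, 54.9% ± 13.6, 42.8% ± 29.8 and 67.9% ± 23.7 in that order of genes. The spreads overlap widely, and differences between genes were not tested. The tnsIM means of Ly6c1, Ly6i and Ly6a lay outside the range set by the other populations in both genotypes. Dendritic cell genes were at their highest in the same matIM libraries in which the monocyte genes were lowest, and their part in these falls was not tested.

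**Figure D3:**
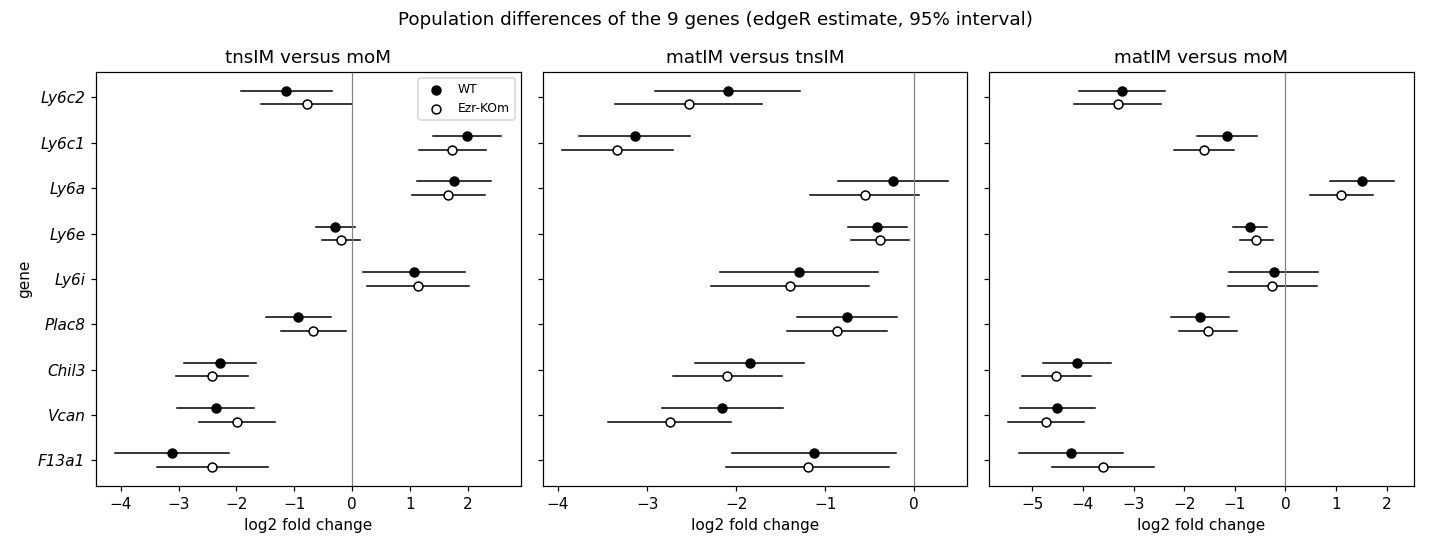
Log2 fold changes of the 9 genes between populations with their 95% intervals, filled circles for WT and open circles for Ezr-KOm, in 3 panels that share the gene axis. In the first panel Ly6c1, Ly6a and Ly6i lie to the right of 0 and the other genes to the left, and in the second panel all 9 lie to the left.

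In Ezr-KOm cells the calls from moMs to matIMs were those of WT cells: the same 7 genes fell and Ly6a rose, in a comparison that called 23.3% of all genes, 10.7% lower and 12.5% higher, and in which 39.9% did not overlap. Chil3 was 23.1-fold and Vcan 26.6-fold lower in Ezr-KOm matIMs than in moMs (log2 -4.53 and -4.73, adjusted p = 1.03e-08 and 1.61e-08), F13a1 12.2-fold (log2 -3.61, adjusted p = 1.67e-05) and Ly6c2 9.97-fold (log2 -3.32, adjusted p = 6.78e-06). The Ly6a rise, 2.15-fold (adjusted p = 0.0101), was lost without moM replicate 2 or 3 or matIM replicate 1. The Ly6e fall, 1.49-fold (adjusted p = 0.0113), was lost without moM replicate 1 or matIM replicate 2.

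Without the replicate block, the first step was called for fewer genes in Ezr-KOm than in WT cells. No difference between the genotypes in this step was called (edgeR interaction test). Ly6c1 and Ly6a rose and Chil3, Vcan and F13a1 fell from moMs to tnsIMs, where 14.3% of all genes were called, 5.04% lower and 9.23% higher, and 28.7% did not overlap. Ly6c2, with 582, 400 and 441 CPM in moMs and 413, 213 and 199 CPM in tnsIMs, overlapped between these populations and was not called (log2 -0.79, adjusted p = 0.185). Plac8 was not called either (log2 -0.67, adjusted p = 0.109). With the replicate block 8 of the 9 genes passed, adding Ly6c2 (adjusted p = 0.0147), Plac8 (adjusted p = 0.0233) and Ly6i (adjusted p = 0.000823). In WT cells the block likewise left only Ly6e uncalled at this step (edgeR adjusted p = 0.0953).

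From Ezr-KOm tnsIMs to matIMs 6 genes fell (Ly6c2, Ly6c1, Ly6i, Plac8, Chil3 and Vcan), where 18.2% of all genes were called, 9.85% lower and 8.37% higher, and 31.2% did not overlap. The Plac8 call was lost without tnsIM replicate 1 or matIM replicate 2, and the Ly6i call without tnsIM replicate 1 or matIM replicate 2 or 3. In WT cells the same step went from 5 to 8 genes with the replicate block, which added Ly6e, Plac8 and F13a1. In Ezr-KOm cells the block added Ly6a (adjusted p = 0.0417), Ly6e (adjusted p = 0.0328) and F13a1 (adjusted p = 0.000606), the last also called without tnsIM replicate 1 (adjusted p = 0.0146).

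No difference between the genotypes was called for any of the 9 genes in any population (edgeR quasi-likelihood test), and none was called in the alternatives, DESeq2 included, where the lowest adjusted p was 0.806. Without the replicate block, only Ly6c1 in moMs passed at an unadjusted p under 0.05, with 28.4 ± 5.67 CPM in Ezr-KOm against 19.0 ± 4.38 CPM in WT libraries (SD, n = 3), which overlap (log2 0.58, 95% interval 0.01 to 1.16; edgeR). Over all genes, 27 (0.171%), 26 (0.164%) and 24 (0.152%) were called in moMs, tnsIMs and matIMs, and 3.74%, 3.24% and 3.84% passed at the unadjusted p. The genotypes overlapped for each of the 9 genes in each population, where 8.52%, 5.81% and 10.1% of all genes did not overlap.

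The intervals state what size of difference remains possible. Without the replicate block, Ly6e was bounded most tightly, with 95% intervals of -0.49 to 0.17 in moMs, -0.40 to 0.26 in tnsIMs and -0.37 to 0.29 in matIMs on the log2 scale. F13a1 was bounded least, from -0.33 to 1.49 in tnsIMs and -0.40 to 1.42 in matIMs around estimates of 0.58 and 0.51. Same-numbered libraries deviated together, and with the replicate block the F13a1 estimates were 0.49 in both populations, with intervals of 0.03 to 0.96 in tnsIMs and 0.02 to 0.95 in matIMs (edgeR unadjusted p = 0.0391 and 0.0414, adjusted p = 0.895 and 0.828). F13a1 was higher in the Ezr-KOm library of each number in 3 of 3 pairs in tnsIMs and in matIMs, and in 1 of 3 pairs in moMs. Vcan in tnsIMs had an estimate of 0.43 with an interval of -0.21 to 1.07. No change of maturation by genotype was called for the 9 genes or for any gene (edgeR interaction test), and at an unadjusted p under 0.05 none of the 9 genes and 233 (1.47%), 183 (1.16%) and 268 (1.7%) of all genes passed in the 3 interactions. DESeq2 called none of the 9 either.

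**Figure D4:**
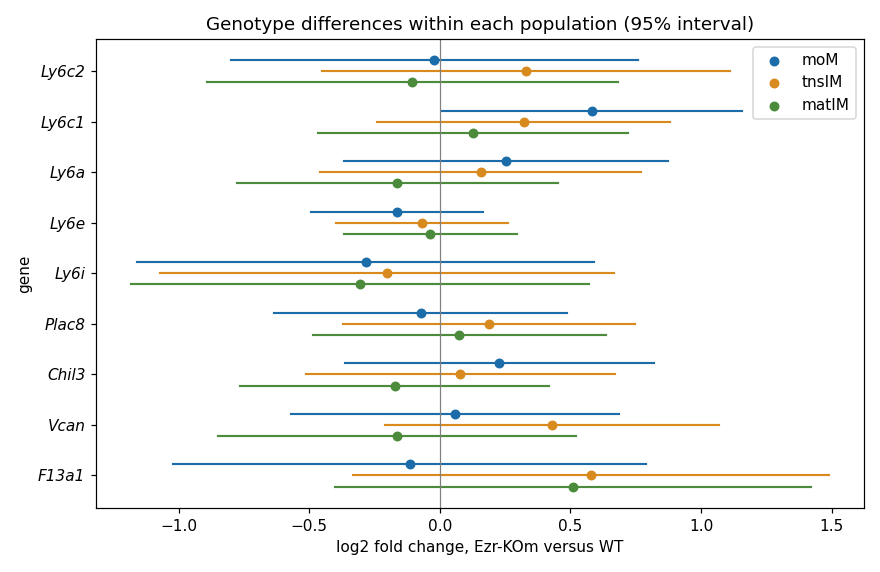
Log2 fold changes of the 9 genes between Ezr-KOm and WT within moMs, tnsIMs and matIMs, with 95% intervals. The fit has no replicate block. All intervals but that of Ly6c1 in moMs include 0, and the intervals are widest for F13a1, Ly6i and Ly6c2.

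Other classical monocyte genes, listed beside the 9, fell as well. Of 12, 9 fell and none rose from WT moMs to matIMs, with a median log2 fold change of -1.72. Among all genes, 11.4% were called lower and 13.4% higher in this comparison. A fall was not particular to classical monocyte genes: of 8 non-classical monocyte genes, 5 fell and 1 rose, with a median of -0.93. Hp (haptoglobin) went from 1124 ± 108 CPM in WT moMs through 448 ± 19.4 to 99.4 ± 11.2 CPM in matIMs, and Thbs1 (thrombospondin 1) from 3164 ± 852 CPM through 1119 ± 423 to 218 ± 62.7 CPM. Klf4, Ms4a4c and S100a4 were not called between any WT populations, with log2 fold changes of -0.31, -0.79 and 0.76 from moMs to matIMs.

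Genes around F13a1 and Vcan gave a mixed picture. Of 11 further coagulation and transglutaminase genes tested, 6 fell and none rose from WT moMs to matIMs, where 11.4% of all genes were called lower and 13.4% higher. F5 (factor V) had 52.9 ± 3.78, 4.86 ± 1.09 and 2.03 ± 0.53 CPM, falling like F13a1 mostly in the first step, while Thbd (thrombomodulin) and F10 (factor X) were called only for the second step (log2 -1.95 and -1.14, adjusted p = 0.000158 and 0.000299). Of 7 further genes for versican and hyaluronan handling, 3 fell and none rose in the same comparison. Tnfaip6, which binds hyaluronan, fell with Vcan from 104 ± 14.4 to 43.5 ± 14.2 and 11.6 ± 2.63 CPM, whereas the versican-cleaving protease Adamts1 rose into tnsIMs (log2 2.36, adjusted p = 0.000113) and fell in matIMs (log2 -3.62, adjusted p = 1.71e-06).

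Over the 18 libraries, the nearest patterns were as follows for the other falling genes. C3, Rnase4 and Fcgr1 were nearest to Ly6c2 (r = 0.972, 0.966 and 0.963), Trem1, Chil3 and Camk2d to Vcan (r = 0.981, 0.979 and 0.979), and Tnfrsf21, Prkcb and AI839979 to F13a1 (r = 0.983, 0.978 and 0.976). Nrg1, Ctss and Atp1b3 were nearest to Plac8 (r = 0.960, 0.959 and 0.955), and Plac8, 1600014C10Rik and Nrg1 to Ly6e (r = 0.950, 0.912 and 0.908). Ly6a2, Cd177 and Vcan were nearest to Chil3 (r = 0.983, 0.982 and 0.979). These values describe libraries that share population and number, and the steps between populations set most of each r.

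Within groups the 9 genes split differently. After the group mean was taken from each library, Plac8 varied with the mean of 15 interferon-induced genes (r = 0.941 over 18 libraries; 0.909 in the 9 WT and 0.948 in the 9 Ezr-KOm libraries), as did Ly6e (r = 0.842), and Plac8 and Ly6e varied together (r = 0.892). Between WT populations the median log2 fold change of these 15 genes was 0.18 from moMs to tnsIMs, -0.25 from tnsIMs to matIMs and -0.07 from moMs to matIMs. Ly6c2 varied with Ly6i (r = 0.864), and Ly6i with Ly6a (r = 0.823). Libraries of 1 number deviated together across populations and genotypes, so each r rests on fewer independent units than the 18 or 9 libraries. Leaving out any replicate number kept the Plac8 value at 0.888 or above and the Ly6c2 and Ly6i value at 0.837 or above, whereas the Ly6a and Ly6i value dropped to 0.458 without number 2.

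Ly6c2 and F13a1, which both fell between populations, varied in opposite directions within groups (r = -0.837). This rested on libraries with the replicate number 1, which held the lowest F13a1 level in all 6 groups and the highest Ly6c2 level in 5. In WT matIMs, for example, number 1 had 61.6 CPM of F13a1 against 167 and 160 CPM, and 69.1 CPM of Ly6c2 against 33.1 and 51.3 CPM. Without number 1 the correlation was -0.20 over 12 libraries. Number 1 also held the highest Plac8 level in all 6 groups. Each genotype was represented by 3 mice, but which library came from which mouse, and what the libraries of 1 number share, is not given in the sources used here.

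**Figure D5:**
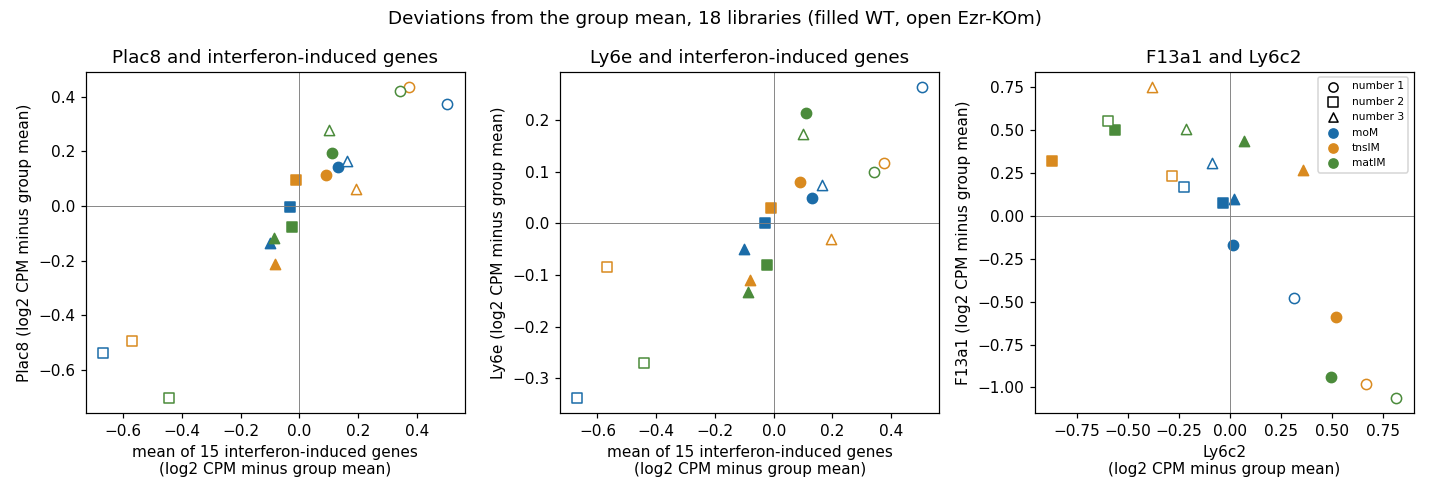
Deviation of each of 18 libraries from its group mean in log2 CPM, for Plac8 and for Ly6e against the mean of 15 interferon-induced genes and for F13a1 against Ly6c2, with symbols for the replicate number. In the right panel the circles of number 1 are below 0 in all 6 groups, and in the left panels the Ezr-KOm libraries span the wider range.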

How the data were processed

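RNA from sorted cells was amplified with SMART-Seq v4, made into Nextera XT libraries and sequenced as 150 bp read pairs. The authors aligned reads with STAR 2.7.9a to GRCm39 (Gencode M29) and deposited gene counts from its GeneCounts mode, which keeps uniquely mapped reads. The strand setting is not given in the sources used here. The deposited counts of 18 libraries (16512783 to 48460995 per library) were analysed in R 4.3.3 with edgeR 4.0.16: genes passing filterByExpr (minimum count 10), TMM scaling, 1 quasi-likelihood model over 6 groups, Benjamini-Hochberg adjustment over 15811 genes and a threshold of 0.05. The study itself called genes by a log2 change beyond 0.75 in size and p under 0.05 without adjustment, a rule not used here. CPM use TMM-scaled library sizes, and correlations use log2 CPM with a prior count of 2. Groups and sort gates came from the sample labels (the methods give the matIM gate differently), and the study gives 3 mice per genotype as biological replicates without tying libraries to mice. No column outside the study was used.

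Same-numbered WT and Ezr-KOm libraries of a population deviated together from their group means (r 0.102 to 0.316 over genes, against at most 0.0508 for different numbers), as did same-numbered libraries of different populations within a genotype (r 0.0905 to 0.397). For the 2 single steps every such r was over 0.1, so the replicate block is printed where it changes a call. The named genes are the 9 members, Ezr, Ccr2, Cx3cr1 and Itgam, up to 4 genes of each list with the smallest p from WT moMs to matIMs, and the 3 genes most like each member. Klf4, Ms4a4c, S100a4, Gpihbp1, Cdh5 and Adamts1, where outside this rule, and Ly6d were picked with values known. The members and lists were chosen with earlier results of these data known. Alternatives were DESeq2 1.42.0, upper-quartile scaling, library totals alone, no filter, 10 counts in every library, only the groups compared, 2 replicate blocks, and each library left out. Leaving out each replicate number in within-group correlations was chosen after seeing the data. The edgeR steps were tested on simulated data. Sequences were read with Python 3.11.15 and aligned with Biopython 1.88. Promoters came from RefSeq (GRCm38.p6), with entries for 6 of 9 members, and transcripts from a later GENCODE release than that of the counts. Exact binomial intervals are at 95% and cover counting error only.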

Additional observations from a re-analysis of the deposited data

How the results depend on the processing

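Of 756 log2 fold changes between populations recomputed under the alternatives, 695 kept their direction and their side of the threshold, 26 lost and 31 gained a call, and 4 changed sign. Of 351 between genotypes, 320 kept both and 31 changed sign, with no call under any alternative. The count of genes called moved by more than 1.5 times under the replicate block only: it was 8 in place of 5 for tnsIMs against matIMs in WT and 8 in place of 5 for moMs against tnsIMs in Ezr-KOm, with the number as 1 term over all libraries and with a term within each genotype. Other counts under the block changed by less. The cause was not tested. With 1 library left out, the counts were 5 to 7 (moMs to tnsIMs), 4 to 6 (tnsIMs to matIMs) and 8 (moMs to matIMs) in WT, and 5 to 6, 4 to 6 and 7 to 8 in Ezr-KOm. The WT Ly6c2 call between moMs and tnsIMs was also lost with upper-quartile scaling, library totals alone and 10 counts in every library (adjusted p = 0.0624, 0.0531 and 0.0553).

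Sign changes came from leaving out a library, and ranges of the log2 fold change without 1 library follow. Between genotypes in moMs it was -0.21 to 0.093 for Ly6c2, -0.025 to 0.37 for Ly6a, -0.28 to 0.16 for Plac8, -0.041 to 0.25 for Vcan and -0.28 to 0.069 for F13a1. Between genotypes in tnsIMs it was -0.10 to 0.63 for Ly6c2, -0.011 to 0.35 for Ly6a, -0.14 to 0.0037 for Ly6e, -0.62 to 0.045 for Ly6i, -0.071 to 0.40 for Plac8 and -0.32 to 0.28 for Chil3. Between genotypes in matIMs it was -0.63 to 0.20 for Ly6c2, -0.087 to 0.28 for Ly6c1, -0.42 to 0.12 for Ly6a, -0.11 to 0.10 for Ly6e, -0.76 to 0.00071 for Ly6i, -0.13 to 0.35 for Plac8, -0.43 to 0.057 for Chil3 and -0.51 to 0.13 for Vcan. From WT moMs to matIMs it was -0.50 to 0.056 for Ly6i. From Ezr-KOm moMs to matIMs it was -0.74 to 0.081 for Ly6i. From WT tnsIMs to matIMs it was -0.50 to 0.0076 for Ly6a. Without 1 library, the WT Ly6c1 share of Ly6C counts was 19.9 to 27.1 percentage points higher in tnsIMs than in moMs. The block changed no call from moMs to matIMs or between genotypes.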

Other observations

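Relatives of the 9 genes that share sequence or family did not follow a common course. Ly6a2, annotated as a transcribed pseudogene within the Ly6 cluster, dropped from 111 ± 10.2 CPM in WT moMs through 6.75 ± 2.22 to 1.23 ± 0.24 CPM in matIMs (SD, n = 3). The log2 fold changes of Ly6a2 were -4.02 and -2.47 for the single steps (SE 0.25 and 0.27, adjusted p = 8.64e-09 and 2.43e-06, edgeR), and -6.49 in WT and -6.34 in Ezr-KOm cells from moMs to matIMs, against -4.51 and -4.73 for Vcan, the furthest of the 9 genes in each genotype. Its pattern was the nearest to that of Chil3 over 18 libraries. Ly6a2 shares 50-base windows with Ly6c2, Ly6a and Ly6i, but no 150-base window with any of the 9.

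Ly6d, a Ly6 gene known from B cells and squamous epithelium, rose from 0.27 ± 0.24 CPM in WT moMs, where it was close to 0, to 8.63 ± 1.11 CPM at the transitional stage and 31.7 ± 8.77 CPM in mature cells (Ly6d adjusted p = 6.03e-06 and 0.00194, edgeR). The 5 B cell genes listed summed to 8.77 to 13.2 CPM in WT moMs and 147 to 220 CPM in WT matIMs, and their part in the Ly6d value was not tested. Chil1 and Chia1, relatives of Chil3, rose from WT moMs to tnsIMs (20.4 ± 5.19 to 988 ± 151 CPM and 0.58 ± 0.34 to 40.8 ± 11.6 CPM) in the libraries with the highest epithelial sums. Chil4, which shares 50-base windows with Chil3, had at most 15 counts in any library. Chil5, with at most 22 counts, averaged 0.028 CPM in WT moMs, 0.067 CPM at the transitional and 0.48 CPM at the mature stage.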
